A study of Mus musculus with 12 samples.

Results

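The RNA levels of 10 genes of neuronal differentiation were followed in Pdgfra/GFP+ cells of the developing mouse, namely Tubb3, Stmn2, Dcx and Map2 (cytoskeleton), Elavl3, Elavl4 and Rbfox3 (RNA-binding proteins), Neurod1 and Nhlh1 (transcription factors) and Igfbpl1 (a secreted protein). They were chosen by symbol, matched through their Ensembl identifiers, and make up 10 of the 47069 identifiers in the expression table. All 10 were among the 18319 genes that passed the filter on low values (0.7 or more CPM, the reads of a gene scaled by library size, in no fewer than 3 libraries). The cells were sorted for green fluorescence from Pdgfra-H2BGFP mice, in which a histone-GFP fusion is made from the Pdgfra locus, and total RNA was sequenced from 12 libraries in 4 groups of 3. The groups are E13.5 brain, E13.5 spinal cord, P7 brain and P7 spinal cord, all from mice heterozygous for the same knock-in, with no treatment. Per the study's methods, brain means forebrain and cells of several animals were pooled for each library, so that a replicate is a pool. GFP bound to chromatin can outlast Pdgfra RNA, which limits how closely GFP follows Pdgfra at the time of sorting. Embryonic tissue was dissociated mechanically and P7 tissue with papain, and at P7 the strongly fluorescent cells were gated, so a difference of P7 from E13.5 is one of age, dissociation and gate together, which cannot be told apart.

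A cell that leaves division to become a neuron switches on proneural and neuronal transcription factors of the basic helix-loop-helix class, such as Neurod1 and Nhlh1. It then makes neuronal tubulin (Tubb3), microtubule regulators (Dcx, Stmn2, Map2) and RNA-binding proteins of the Hu and Rbfox families (Elavl3, Elavl4, Rbfox3), whose protein products are standard antibody markers of young or mature neurons. Several of these genes are not limited to neurons. Map2 and Dcx RNA is also known in cells of the oligodendrocyte lineage, to which most postnatal Pdgfra-expressing cells of the central nervous system belong.

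Libraries held between 12566345 and 38790312 reads, and 3 reads, taken here as the floor of detection in a library, were worth between 0.0792 and 0.506 CPM. The replicates of each group differed by more than sampling noise, least so replicates 1 and 2 at P7, where 10.5% of genes in brain and 13.8% in spinal cord had a chi-square p under 0.05, against 29.8% to 60.3% for the other pairs; averaging these replicates changed no count of members called. E13.5 spinal cord replicate 3 stood apart, with 41.0% of its reads on protein-coding genes against 82.4% to 91.2% in the other 11 libraries. Values without it are given for some of the counts and members. The 5 oligodendrocyte precursor markers, Pdgfra among them, summed to 741 to 1232 CPM in E13.5 brain, 486 to 715 in the E13.5 cord, 5069 to 5953 in P7 brain and 4793 to 4869 in P7 spinal cord, so the gate's own gene and its companions were present in every library. The 6 vascular and leptomeningeal markers, led by Col1a2, summed to 2581 to 3704 CPM in E13.5 brain and 5333 to 5791 in the E13.5 cord, against 693 to 917 and 645 to 1302 at P7, and were also present in every library.

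**Figure D1:**
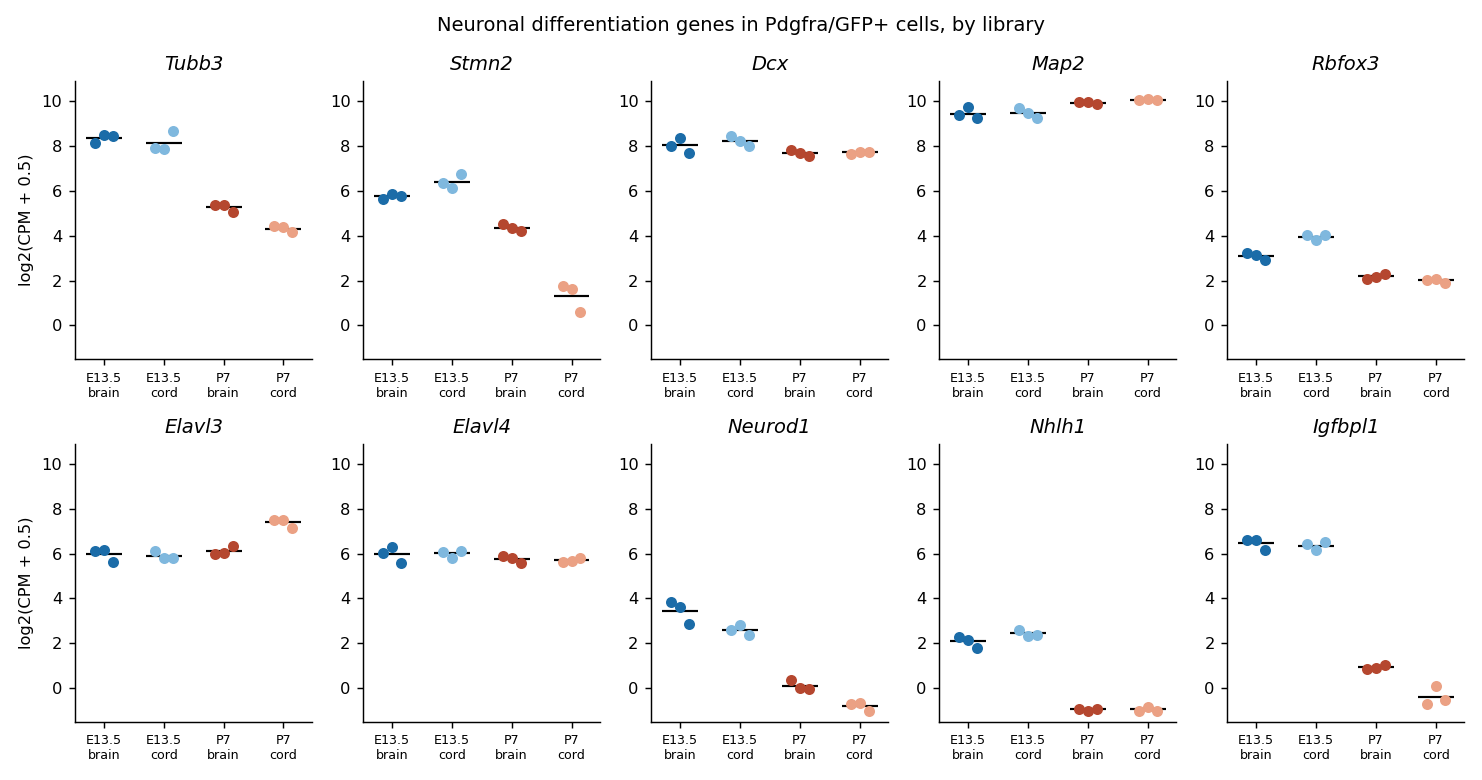
Level of each of the 10 genes in each library, as log2(CPM + 0.5) on the vertical axis, with the 4 groups along the horizontal axis; each point is 1 library and each black bar the mean of 3. Igfbpl1, Nhlh1, Neurod1 and Tubb3 lie far lower in all 6 P7 libraries than in all 6 E13.5 libraries, Stmn2 is lowest in P7 spinal cord, Elavl3 is highest there, and Dcx, Map2 and Elavl4 stay within a narrow band.

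The levels were first compared between genes per length of exon, since a longer transcript yields more reads. In E13.5 brain Tubb3 was the most abundant of the 10 at 176 ± 20.8 CPM per kb (SD, n = 3). Map2 followed at 43.0 ± 7.63 CPM per kb, Igfbpl1 at 27.1 ± 4.79 and Dcx at 20.9 ± 4.86. Rbfox3 was the lowest at 1.39 ± 0.177 CPM per kb. The order was different at P7, when Map2 headed the list in both regions, at 59.5 ± 2.14 CPM per kb in brain and 65.1 ± 0.833 in spinal cord. In P7 brain Tubb3 came next at 20.4 ± 2.38 CPM per kb and then Dcx at 16.3 ± 1.42, and in P7 spinal cord Elavl3 came next at 24.5 ± 3.41 CPM per kb, followed by Dcx at 16.6 ± 0.570. The member with the highest level was thus Tubb3 in E13.5 brain and Map2 in both P7 groups.

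The upstream windows of 3 members were read to show the DNA beside genes that moved differently, and the sequences are those of RefSeq on GRCm38.p6 (mm10), 250 bases before the RefSeq start, 5′ to 3′ on the gene's strand. Windows were found for 8 of the 10 genes, of which 4 contain no annotated exon. Nhlh1 is shown as a gene near 0 at P7, Elavl3 as the one that rose in spinal cord and Elavl4 as its relative without a called change. Capitals mark the E-boxes CAGATG and CAGCTG as well as CATATG, which helix-loop-helix factors such as Neurod1 can bind, and the TATAA and CCAAT letters of core promoters, each searched on both strands.
Nhlh1 (chr1:172057597-172057846, minus strand): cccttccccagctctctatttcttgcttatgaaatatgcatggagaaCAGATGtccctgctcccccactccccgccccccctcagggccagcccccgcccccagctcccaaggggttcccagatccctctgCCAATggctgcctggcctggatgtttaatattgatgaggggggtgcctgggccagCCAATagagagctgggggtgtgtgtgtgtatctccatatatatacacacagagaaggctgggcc
Elavl3 (chr9:22052024-22052273, minus strand): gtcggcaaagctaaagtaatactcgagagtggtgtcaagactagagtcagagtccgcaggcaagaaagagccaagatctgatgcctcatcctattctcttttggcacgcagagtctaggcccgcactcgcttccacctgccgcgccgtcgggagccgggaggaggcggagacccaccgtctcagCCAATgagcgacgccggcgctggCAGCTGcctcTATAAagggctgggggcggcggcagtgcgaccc
Elavl4 (chr4:110351912-110352161, minus strand): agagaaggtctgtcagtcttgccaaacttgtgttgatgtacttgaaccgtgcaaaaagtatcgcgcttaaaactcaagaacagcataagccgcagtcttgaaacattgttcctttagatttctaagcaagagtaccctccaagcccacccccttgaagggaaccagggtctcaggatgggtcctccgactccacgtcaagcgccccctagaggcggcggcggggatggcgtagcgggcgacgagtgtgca

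In the Nhlh1 window CAGATG begins 203 bases before the start and CCAAT 119 and 64 bases before it. In the Elavl3 window CCAAT begins 66, CAGCTG 43 and TATAA 33 bases before the start. The table has 4 windows for Elavl4, and the 1 read here, at the start farthest upstream, holds none of the 5 motifs, which says no more than that these letters are not in it. Among all 32817 windows of the same length, 14.5% held CAGATG, 13.0% CAGCTG, 3.47% CATATG, 22.8% TATAA and 33.8% CCAAT. The share of G and C was 58.4% in the Nhlh1 window, 61.6% in that of Elavl3 and 53.6% in that of Elavl4, with a median of 52.4% over all windows.

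From E13.5 to P7 in brain, 5 of the 10 genes fell and 0 rose, where a gene counts as having risen or fallen when limma on log2(CPM + 0.5) gave a Benjamini-Hochberg adjusted p under 0.05 over all 18319 genes and a change above 2-fold. Of all genes tested, 16.7% fell and 11.0% rose by this rule. The 5 were Tubb3, Stmn2, Neurod1, Nhlh1 and Igfbpl1, while 7 of the 10 had an adjusted, and likewise an unadjusted, p under 0.05 without the fold requirement. In spinal cord the same 5 and Rbfox3 fell, 6 in all, and 1 gene, Elavl3, rose, against 18.2% of all genes that fell and 16.9% that rose. Neurod1 and Nhlh1 passed the filter on low values only through their E13.5 libraries, so the filter itself favoured counting them as fallen. The 10 had a median log2 change of -1.15 in brain and, in spinal cord, of -2.67; the medians over all genes tested were -0.19 and 0.12. Without E13.5 spinal cord replicate 3 the counts in spinal cord were still 6 and 1 and the median was -2.67. RNA was measured in bulk, so that fewer cells of a type and less RNA per cell cannot be told apart. Markers of other cell types moved with age as well. The 5 precursor markers and the 6 committed and myelinating oligodendrocyte markers rose in both regions, the latter by a median of 5.88 on the log2 scale in brain and 8.78 in spinal cord. Of the 6 vascular and leptomeningeal markers, 5 fell and 1, Rgs5, rose in brain, and 6 fell in spinal cord. Of 4 microglia markers tested, 4 rose in brain and 1 in spinal cord, and of 5 astrocyte markers 4 rose and 1 fell in brain and 3 rose and 1 fell in spinal cord. The part of these markers' cells in the changes of the 10 genes was not tested.

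**Figure D2:**
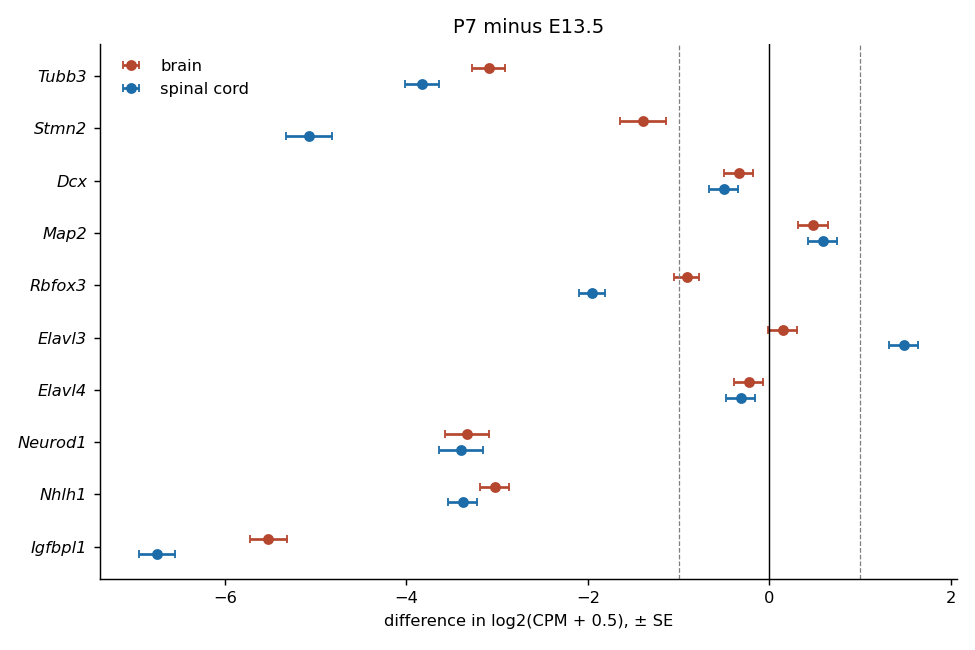
Change of each gene from E13.5 to P7, as the difference in log2(CPM + 0.5) with its standard error from limma, in brain (red) and spinal cord (blue); the dashed lines mark a 2-fold change. Igfbpl1 lies farthest to the left in both regions (-5.52 and -6.75), Stmn2 differs most between the regions (-1.39 and -5.07), and Elavl3 in spinal cord (1.48) is the sole value beyond the dashed line on the right.

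Among the cytoskeletal genes, Tubb3 (chr8:123411424-123422015, plus strand; mm10, as are all coordinates here) encodes the class III beta-tubulin of neurons. Its values in E13.5 brain were 284, 357 and 345 CPM, and in the E13.5 cord 242, 232 and 405. At P7 they were 40.8, 40.4 and 32.9 CPM in brain and 20.8, 20.2 and 17.7 in spinal cord. No P7 library came near any E13.5 library. The log2 change was -3.09 (SE 0.18, limma adjusted p = 2.87e-08) in brain and -3.83 (SE 0.18, limma adjusted p = 2.84e-09) in spinal cord. The highest of the E13.5 spinal cord values belongs to replicate 3, and without it the change in spinal cord was -3.57.

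Stmn2 (chr3:8509360-8561606, plus strand) encodes stathmin-2, a microtubule regulator of growing axons. It stood at 49.2, 57.2 and 54.2 CPM in E13.5 brain and at 80.4, 69.3 and 108 CPM in the E13.5 cord. In P7 brain it still reached 22.3, 20.0 and 18.2 CPM, whereas in P7 spinal cord it was at 2.89, 2.59 and 1.02 CPM. The 4 groups did not overlap. Its log2 change was -1.39 (SE 0.25, limma adjusted p = 0.000417) in brain and -5.07 (SE 0.25, limma adjusted p = 3.57e-09) in spinal cord. In brain the fall was above 2-fold as a point estimate, but a test against 2-fold itself (limma treat) did not call it. Short stretches of its transcripts, 0.304% of those 75 bases long, are shared with 36 other genes.

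Dcx and Map2, a further pair of microtubule-associated proteins, did not reach a 2-fold change in either region. Dcx (chrX:143855842-143933311, minus strand), which encodes doublecortin of migrating neuroblasts, ranged from 209 to 331 CPM in E13.5 brain, from 253 to 352 in the E13.5 cord, from 189 to 225 in P7 brain and from 202 to 216 in P7 spinal cord. Its log2 change was -0.33 in brain (SE 0.16, limma adjusted p = 0.0877), with overlapping libraries, and -0.50 in spinal cord (SE 0.16, limma adjusted p = 0.0139), without overlap but short of 2-fold. When E13.5 spinal cord replicate 3 was left out of the fit, the change in brain was still -0.33 but had a limma adjusted p of 0.0469. Map2 (chr1:66175273-66442583, plus strand), which binds microtubules in dendrites, ranged from 612 to 849 CPM over the E13.5 libraries and from 938 to 1081 over the P7 libraries. Every P7 library was above every E13.5 library. The log2 change of 0.48 in brain (SE 0.16, limma adjusted p = 0.0202) and 0.59 in spinal cord (SE 0.16, limma adjusted p = 0.00578) was again below 2-fold. Map2 exons overlap an antisense gene, Gm10558, at a mean of 0.116 CPM, against 868 CPM for Map2 itself.

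The RNA-binding proteins differed from each other, and Elavl3 and Elavl4, although close relatives, were not called alike. Rbfox3 (chr11:118489762-118911597, minus strand) encodes NeuN, the splicing factor used to stain mature neurons. It was low in every library, at 8.98, 8.39 and 6.97 CPM in E13.5 brain and 16.1, 13.47 and 15.7 in the E13.5 cord. At P7 it was at 3.73, 4.03 and 4.46 CPM in brain and 3.59, 3.76 and 3.20 in spinal cord, and no P7 library overlapped an E13.5 library. The log2 change was -1.95 (SE 0.14, limma adjusted p = 7.64e-08) in spinal cord. In brain it was -0.91 (SE 0.14, limma adjusted p = 0.000104), just short of 2-fold. Without E13.5 brain replicate 3 it was -1.01, which would count it as fallen there too. With library factors recomputed from the reads (trimmed mean of M values, TMM) it was -0.74, farther from 2-fold.

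Elavl3 (chr9:22015005-22052023, minus strand), also known as HuC, stabilises neuronal messenger RNAs. Its values were 69.2, 71.5 and 49.2 CPM in E13.5 brain, 69.6, 55.1 and 55.0 in the E13.5 cord and 63.6, 64.8 and 80.6 in P7 brain. In P7 spinal cord they were 181, 183 and 141 CPM, above all the other 9 libraries, which overlapped among themselves. The log2 change was 1.48 (SE 0.16, limma adjusted p = 3.94e-06) in spinal cord and 0.15 (SE 0.16, limma adjusted p = 0.446) in brain. Of the 75-base stretches of its transcripts, 2.61% also occur in 1 other annotated gene, Gm49318. Elavl4 (chr4:110203722-110351909, minus strand), or HuD, its relative with the same class of RNA-recognition motifs, lay between 47.1 and 78.8 CPM in all 12 libraries, and its groups overlapped. Its change was -0.23 (SE 0.16, limma adjusted p = 0.239) in brain and -0.31 (SE 0.16, limma adjusted p = 0.098) in spinal cord.

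The transcription factors fell in both regions, and at P7 Nhlh1 in both regions and Neurod1 in spinal cord were at or near the floor of detection. Neurod1 (chr2:79452521-79456751, minus strand), which drives neuronal differentiation of committed precursors, was at 13.8, 11.8 and 6.70 CPM in E13.5 brain and at 5.54, 6.53 and 4.72 in the E13.5 cord. At P7 it was at 0.788, 0.496 and 0.475 CPM in brain and at 0.108, 0.123 and 0 in spinal cord. The brain values rest on 59 reads in the 3 libraries together and the spinal cord values on 8. Summed over libraries, E13.5 brain was 18.8 times P7 brain (95% counting interval 14.4 to 25) and E13.5 spinal cord 75.3 times P7 spinal cord (37.7 to 176). On the log2(CPM + 0.5) scale, which compresses such low values, the changes were -3.33 (SE 0.24, limma adjusted p = 1.61e-07) and -3.40 (SE 0.24, limma adjusted p = 8.1e-08). Neurod1 exons overlap those of Cerkl, which averaged 0.314 CPM, and 7.87% of the 75-base stretches of Neurod1 also occur in other genes, so the lowest Neurod1 values are uncertain.

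Nhlh1 (chr1:172052292-172057573, minus strand), a helix-loop-helix factor of newly born neurons, had the fewer reads of the pair at P7. It was at 4.37, 3.95 and 3.00 CPM in E13.5 brain and at 5.60, 4.49 and 4.72 in the E13.5 cord. At P7 it had 2 reads in the 3 brain libraries together and 2 in the 3 spinal cord libraries, under the floor in every library. By summed reads, E13.5 exceeded P7 by 193 times in brain (95% counting interval 52.7 to 1600) and by 251 times in spinal cord (68.6 to 2083). These intervals cover counting error alone, PCR copies of a read not being separate molecules. The log2 changes were -3.03 (SE 0.16, limma adjusted p = 1.26e-08) and -3.38 (SE 0.16, limma adjusted p = 2.83e-09).

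Igfbpl1 (chr4:45809468-45826923, minus strand), a secreted protein with a domain like those of the insulin-like growth factor binding proteins, had the widest drop of the 10 on the fitted scale. Its values were 96.9, 97.1 and 70.0 CPM in E13.5 brain and 84.7, 70.7 and 89.8 in the E13.5 cord. At P7 they were 1.30, 1.36 and 1.56 CPM in brain and 0.108, 0.555 and 0.186 in spinal cord. Both E13.5 groups overlapped each other and stood apart from both P7 groups, which did not overlap. The log2 change was -5.52 (SE 0.20, limma adjusted p = 6.59e-10) in brain and -6.75 (SE 0.20, limma adjusted p = 1.29e-10) in spinal cord. By summed reads the ratio was 62.9 (95% counting interval 53.3 to 74.8) and 285 (197 to 429).

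At E13.5 no member reached a called difference between brain and spinal cord. Of the 10, 0 were called by limma in either direction, against 3.53% of all genes called higher in brain and 5.17% called higher in spinal cord. At an unadjusted p under 0.05 there were 4, and 2 had an adjusted p under 0.05 without the fold requirement. With limma-voom, edgeR's quasi-likelihood test and DESeq2 on the recovered reads, 0 were called as well. The 2 were Rbfox3, lower in brain by a log2 difference of -0.86 (SE 0.14, limma adjusted p = 0.000523), and Neurod1, higher in brain by 0.84 (SE 0.24, limma adjusted p = 0.0189). For both the libraries of the regions did not overlap, and without E13.5 brain replicate 3, the lowest of the brain libraries for Neurod1, its difference was 1.13 and it was called. Stmn2 differed by -0.65 (SE 0.25, limma adjusted p = 0.0663), also with no overlap. The other members with overlapping groups had differences between -0.19 for Dcx and 0.21 for Tubb3 (limma adjusted p = 0.43). The overlap of Tubb3 rests on E13.5 spinal cord replicate 3, without which its difference was 0.46 (limma adjusted p = 0.00699), still short of 2-fold. Without the same library Dcx differed by -0.31 (limma adjusted p = 0.12) and Igfbpl1 by 0.17 (limma adjusted p = 0.55). With all libraries Nhlh1 differed by -0.36 (SE 0.16, limma adjusted p = 0.117).

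At P7 the regions had parted for some members. Stmn2 and Igfbpl1, 2 of 10, were higher in brain, against 2.27% of all genes, and Elavl3, 1 of 10, was higher in spinal cord, against 4.35%. The median difference over the 10 was 0.12, where that over all genes tested was -0.19. Stmn2 was 9.30 times as high in P7 brain as in P7 spinal cord by group means, a log2 difference of 3.03 (SE 0.25, limma adjusted p = 4.06e-06). Igfbpl1 differed by 1.32 (SE 0.20, limma adjusted p = 0.00045), and by a ratio of 5.14 in summed reads (95% counting interval 3.41 to 8.0), on 143 reads in brain and 28 in spinal cord. Elavl3 differed by -1.27 (SE 0.16, limma adjusted p = 0.000123).

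Tubb3 and Neurod1 lay just short of 2-fold by the same fit, with no overlap between the regions. Tubb3 was higher in P7 brain by 0.94 (SE 0.18, limma adjusted p = 0.00248), or by 1.04 without P7 brain replicate 3, and Neurod1 by 0.91 (SE 0.24, limma adjusted p = 0.0144). The authors' library scaling in P7 brain exceeded the factors recomputed from the reads (trimmed mean of M values, TMM) by 0.18 to 0.22 on the log2 scale, which lowers every P7 brain value by that amount. With TMM the median difference of all genes went from -0.19 to -0.02, Tubb3 was at 1.13 and Neurod1 at 1.01, and 4 members were called higher in brain in place of 2. Neurod1 in summed reads was 7.42 times as high in brain (95% counting interval 3.53 to 18.0). Dcx (-0.03), Map2 (-0.13), Elavl4 (0.06), Rbfox3 (0.19) and Nhlh1 (-0.00) were not called by either scaling. With TMM the signs of Dcx, Map2 and Nhlh1 turned. Among the changes with age in brain, TMM put Dcx at -0.14 and Map2 at 0.67, and neither was called.

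**Figure D3:**
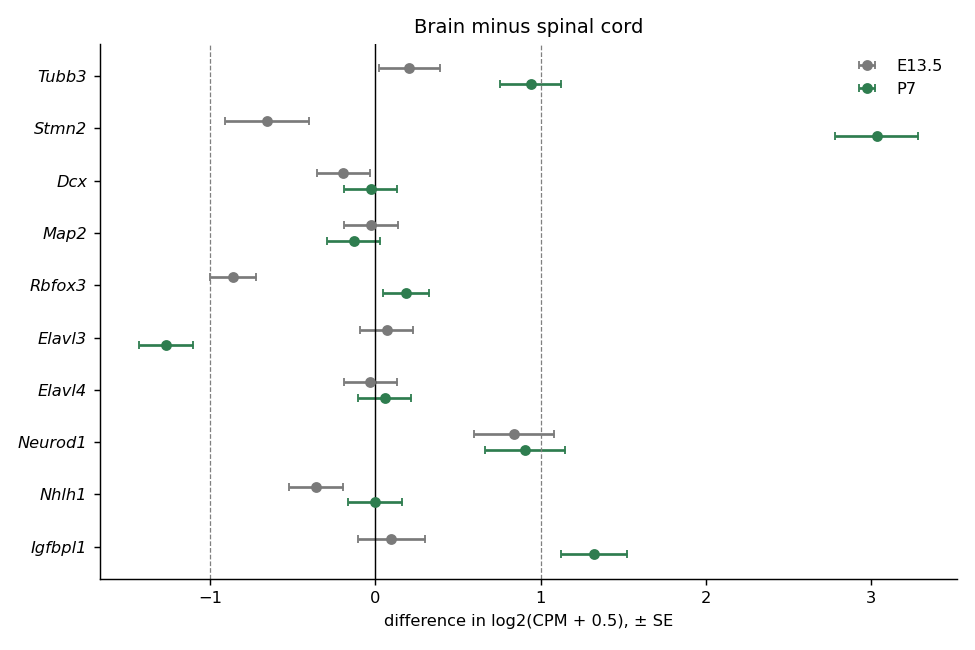
Difference of brain minus spinal cord for each gene at E13.5 (grey) and at P7 (green), as log2(CPM + 0.5) with its standard error from limma; the dashed lines mark a 2-fold difference. At E13.5 all 10 lie within the dashed lines, and at P7 Stmn2 (3.03) and Igfbpl1 (1.32) lie beyond the right line and Elavl3 (-1.27) beyond the left.

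Whether the regional difference itself changed between the ages was tested as an interaction. Of the 10 genes, 3 shifted towards brain (Stmn2, Igfbpl1, Rbfox3) and 1 towards spinal cord (Elavl3), against 6.66% and 9.66% of all genes. The shift was 3.69 for Stmn2 (SE 0.36, limma adjusted p = 1.43e-05), whose libraries were all higher in spinal cord at E13.5 and all higher in brain at P7. It was 1.22 for Igfbpl1 (SE 0.29, limma adjusted p = 0.0049) and -1.33 for Elavl3 (SE 0.23, limma adjusted p = 0.000727). Igfbpl1 was not called with a pseudocount of 1 (0.82), nor Elavl3 with quantile scaling (-0.9967), and a test against 2-fold itself called neither. For Rbfox3 it was 1.05 (SE 0.20, limma adjusted p = 0.00129), and leaving out replicate 3 of E13.5 brain, P7 brain or P7 spinal cord, or replicate 1 of E13.5 spinal cord, put it below 2-fold, at 0.946 to 0.998. Tubb3, at 0.73 (SE 0.26, limma adjusted p = 0.0412), was short of 2-fold, as it was without E13.5 spinal cord replicate 3 (0.48), whereas median-ratio scaling (1.04) and TMM over protein-coding genes (1.02) called it. The median shift of the 10 was 0.26, and -0.24 over all genes tested. Without E13.5 spinal cord replicate 3 the same counts of 3 and 1 were obtained, with Stmn2 at 3.51 and Elavl3 at -1.28.

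Other markers also differed between the regions at P7, some higher in brain and some in spinal cord. The 5 microglia markers summed to 21.1 to 48.1 CPM in P7 brain and 3.57 to 11.0 in P7 spinal cord. Of 10 genes of transmitter identity, 2 were higher in P7 brain (Slc17a7, Gad2) and 1 in spinal cord (Slc6a5). Of 14 synaptic and mature neuron genes, 3 were higher in brain (Syt1, Thy1, Camk2a) and 0 in spinal cord. Of 15 neuronal transcription factors, 2 were higher in brain (Insm1, Tbr1) and 5 in spinal cord (Ebf1, Ebf2, Ebf3, Onecut2, St18). Over all 84 genes of the 6 lists set out below, 10 were higher in brain and 8 in spinal cord. Of all genes tested, 2.27% were higher in brain and 4.35% in spinal cord. Slc17a7, the vesicular glutamate transporter of cortical neurons, was at 8.12, 7.84 and 10.2 CPM in P7 brain. In P7 spinal cord it was under the floor, at 0, 0.0617 and 0.0310. Camk2a, a synaptic kinase, was at 13.9, 14.2 and 13.3 CPM in P7 brain against 1.30, 1.60 and 1.05 in P7 spinal cord. The E13.5 libraries also had called differences of both, 2.87 and 1.03 on the log2 scale, towards brain. Committed and myelinating oligodendrocyte markers, 6 genes such as Mbp and Mag, were higher in sum in spinal cord, at 6511 to 9900.0 CPM against 935 to 2173 in P7 brain. Elavl3 was higher in the same libraries. The part of these populations in the differences of Stmn2, Igfbpl1, Tubb3, Neurod1 and Elavl3 was not tested.

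The 10 genes were then set beside 84 further genes in 6 lists, which were drawn up with earlier results of these data known and leave out some genes. One list holds 23 relatives of the members, and the others hold neuronal genes by function. The relatives were taken by gene family, so the totals over the 84 are not of neuronal genes alone. From E13.5 to P7, 33 of the 84 fell and 13 rose in brain, and 42 fell and 10 rose in spinal cord. Of all genes tested, 16.7% fell and 11.0% rose in brain and 18.2% fell and 16.9% rose in spinal cord. Some of the 84, such as Eomes and Robo3, passed the filter through their E13.5 libraries alone. With TMM, median-ratio or quantile scaling, 0 of the called genes changed sign, 33 fell and 14 to 16 rose in brain, and 42 to 43 fell and 8 to 10 rose in spinal cord. Of the 15 transcription factors, 13 fell and 0 rose in brain (1 rose with each of those scalings), with a median log2 change of -3.39, and 9 fell and 1 rose in spinal cord, with a median of -2.01. Ebf1, a factor of differentiating neurons, went from a mean of 61.2 to 2.82 CPM in brain, and in the cord from 147 to 8.57. Eomes (Tbr2), a factor of cortical intermediate progenitors, was at 46.4, 43.4 and 29.7 CPM in E13.5 brain. In P7 brain it was at or under the floor, at 0.0606, 0.0992 and 0.0792, and in spinal cord it was under the floor at both ages. The gene that rose in spinal cord was Pou3f1, a POU-domain factor also known in myelinating glia, by 3.01. Onecut2 and St18 fell in brain, by 2.15 and 1.27, and stood at 0.91 and 0.95 in spinal cord, where neither was called.

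**Figure D4:**
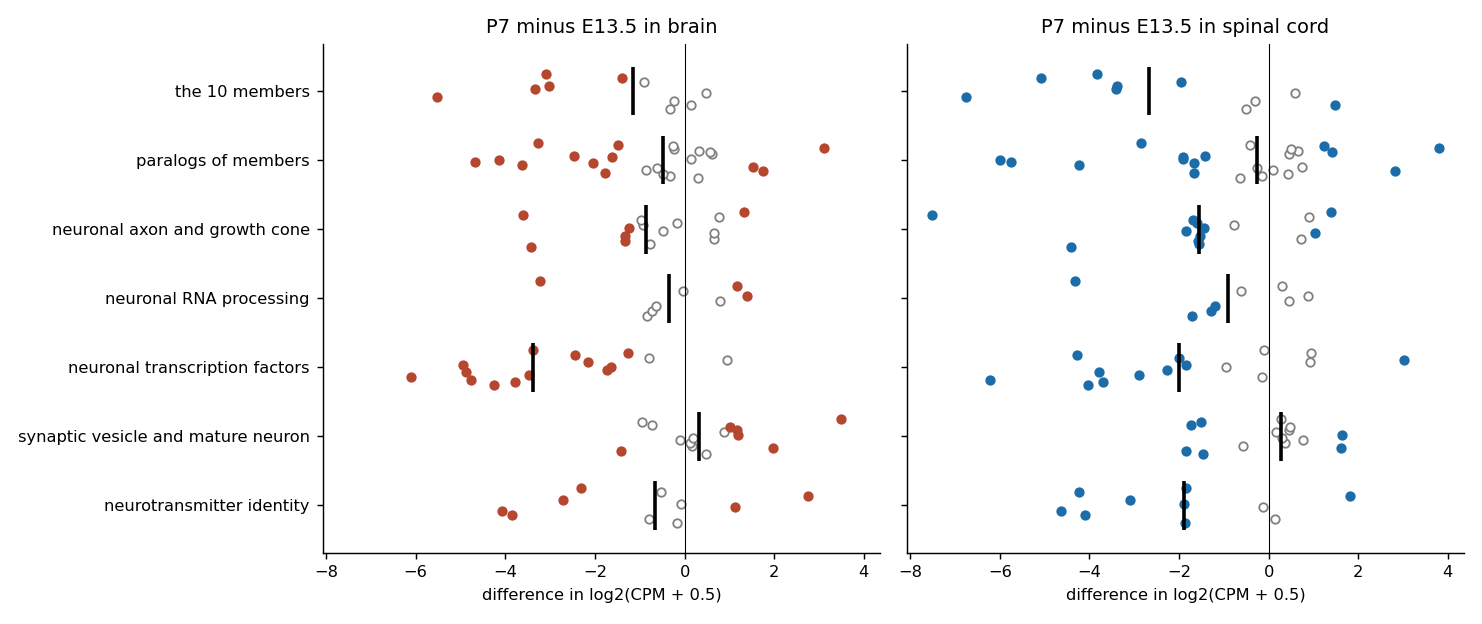
Change from E13.5 to P7 of the 10 genes and of 84 genes in 6 lists (relatives of the members and neuronal genes by function), as the difference in log2(CPM + 0.5), in brain (left) and spinal cord (right). Each circle is a gene, filled where it was called, and the black bar is the list's median; the transcription factors have the lowest median in brain (-3.39), and the synaptic list has a median above 0 in both regions (0.33 and 0.28).

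Of 14 genes in the synaptic vesicle and mature neuron list, 5 rose and 1 fell in brain, and 2 rose and 4 fell in spinal cord. The shares of all genes tested were 11.0% risen and 16.7% fallen in brain, and 16.9% risen and 18.2% fallen in spinal cord. Those that rose in brain were Syn1, Syp, Scg3, Thy1 and Cplx1, all linked to synapses, secretion or the neuronal surface, and Celsr3, an axon guidance cadherin, fell. In spinal cord Syt1, a calcium sensor of vesicle release, fell by 1.74 and Syt4 fell by 1.52, whereas in brain they stood at -0.72 and -0.95 and were not called. Of 14 axon and growth cone genes 5 fell and 1 rose in brain and 9 fell and 2 rose in spinal cord. The gene with the farthest fall was Robo3, the receptor of commissural axons. It went from 112, 78.5 and 107 CPM in the E13.5 cord to 0.0270, 0.0308 and 0.0620 at P7, all under the floor. Of 8 RNA-processing genes 1 fell and 2 rose in brain, and 4 fell and 0 rose in spinal cord. Of 10 genes of transmitter identity 4 fell and 2 rose in brain, and 7 fell and 1 rose in spinal cord, among the fallen in both Slc17a6 and Gad2, which mark glutamatergic and GABAergic neurons. Slc5a7, the choline transporter, rose in both. In each of these lists the number that rose in spinal cord was near or below the share of all genes. So were the numbers that fell in brain in the synaptic and RNA-processing lists, and that rose in brain in the axon list.

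Relatives of the 10 genes, 23 in all, included genes that fell and genes that rose. Of the 23, 9 fell and 3 rose in brain and 9 fell and 4 rose in spinal cord, so that the numbers that rose were near the shares of all genes (11.0% and 16.9%). Among the tubulins, Tubb6 fell with Tubb3, by 3.26 in brain and 2.86 in spinal cord, while Tubb4a rose, from a mean of 8.81 to 84.7 CPM in brain, and in the cord from 15.6 to 220. Among the stathmins, Stmn1 fell in both regions and Stmn4 rose in spinal cord by 1.42. Of the Hu proteins, Elavl2 fell in both regions, by 1.78 in brain and by 1.67 in spinal cord, unlike Elavl3 and Elavl4. Neurod2 and Neurod6, relatives of Neurod1 in cortical excitatory neurons, fell in both regions and were called higher in brain at both ages. Neurod6 was at 78.2, 64.7 and 53.2 CPM in E13.5 brain against 31.7, 28.7 and 32.7 in the E13.5 cord. In P7 brain it was at 2.0, 2.15 and 2.01 CPM against 0.0540, 0.123 and 0.0931, near the floor, in P7 spinal cord. Nhlh2 fell by 4.15 in brain and by 6.0 in spinal cord, beside its relative Nhlh1. Map1a, a microtubule-associated protein like Map2, rose in both regions, by 1.74 and 2.82.

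Correlations of log2(CPM + 0.5) between members over the 12 libraries are given as a description, since the libraries fall into 4 groups that set most of the variation. Tubb3 and Igfbpl1 had r = 0.99, and Nhlh1 had r = 0.96 with Tubb3. Map2 ran opposite, at r = -0.91 with Tubb3, and Elavl3 ran opposite to Stmn2, at r = -0.90. Dcx and Elavl4, the members with the least change, had r = 0.81 with each other. The non-member genes with the pattern most like each member, by the same r over the 12 libraries, were Msi1 for Tubb3 (0.996), Fam84a for Stmn2 (0.987), Lpin2 for Dcx (0.928), Ulk2 for Map2 (0.977), Adssl1 for Elavl3 (0.987) and Ube2e1 for Elavl4 (0.909). They were Zfp362 for Rbfox3 (0.989), Mapk11 for Neurod1 (0.992), Ndst3 for Nhlh1 (0.998) and Zfhx4 for Igfbpl1 (0.998). Adssl1 showed the step of Elavl3 most steeply, at a mean of 10.8 CPM in P7 spinal cord and below 1 in the other groups.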

How the data were processed

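The authors sequenced total RNA of FACS-sorted Pdgfra/GFP+ cells, with 3 libraries each from E13.5 brain, E13.5 spinal cord, P7 brain and P7 spinal cord. Titles gave each sample's group and replicate number. Per the study's methods and the submitters' processing notes, stranded libraries were aligned with STAR 2.5.0a to mm10 and counted per GENCODE M8 gene with featureCounts 1.5.0-p1, reads with several places being split among them and rounded. Whether counting used the strand is not given in the sources used here. The notes also name HISAT2 2.0.5 and StringTie 1.3.1c, whose role is not given.

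The authors deposited CPM without a log, for which the library size of each sample was first adjusted by a normalization factor. In 3 columns the authors' adjusted size is below the number of reads, so these columns hold a read signal that sums to more than plain CPM can. All values (100%) were whole multiples of 1 read within 0.001 reads, so the reads were recovered. No column was left out (0 not used).

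Analyses used Python 3.11.15 with numpy 2.4.6, pandas 2.3.3 and scipy 1.17.1, and R 4.3.3. limma 3.58.1 with an intensity trend was fitted to log2(CPM + 0.5) of the 18319 genes that reached 0.7 CPM in 3 or more libraries, with 1 mean per group over all 12 libraries, in place of the study's voom. Calls need a Benjamini-Hochberg adjusted p under 0.05 over all genes and a change above 2-fold, and the log2(CPM + 0.5) scale understates the change of low genes. Alternatives were TMM, median-ratio and quantile scaling, other pseudocounts (0.1 and 1), no filter and a filter of 5 CPM, limma-voom, edgeR 4.0.16 and DESeq2 1.42.0 on the recovered reads, no fold requirement, limma treat, fits on the compared groups alone, omission of each replicate, averaging P7 replicates 1 and 2, and a replicate block. A fit on protein-coding genes was added after seeing the data. Counting intervals are exact binomial at 95%. The fits were tested on simulated counts.

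The 10 members, the gene lists and the alternatives were chosen with earlier results of these data known. Some genes of the lists are not reported here and were left out of the lists' counts and sums. Members are named in every comparison, listed genes with their list, and for each member the non-member genes of highest correlation. Symbols, positions and exon lengths came from GENCODE M21 on the same build. Nothing states that a replicate number marks a shared litter or pool.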

Additional observations from a re-analysis of the deposited data

Results flagged for a closer look

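The regional difference at P7 was set against that at E13.5 by an interaction test, which called 4 of the 10 genes. Of all genes tested, 6.66% were called towards brain and 9.66% towards spinal cord. A test against 2-fold itself (limma treat) called Stmn2 alone of the 10. Stmn2 had the largest shift among the 10, 3.69 on the log2 scale, with brain minus spinal cord going from -0.65 to 3.03, and all 3 P7 brain libraries lay above all 3 P7 spinal cord libraries after the reverse order at E13.5. Elavl3 shifted by -1.33, from 0.07 to -1.27, and was not called with quantile scaling (-0.9967). Igfbpl1 shifted by 1.22, from 0.10 to 1.32, on few reads at P7, and was not called with a pseudocount of 1 (0.82). Rbfox3 shifted by 1.05, from -0.86 to 0.19, and was not called with a pseudocount of 1 (0.989). Some of the microglial, transmitter, synaptic, neuronal transcription factor and myelin genes given in the report differed between the same P7 groups, in both directions. Their part in these shifts was not tested.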

How the results depend on the processing

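The counts of members called for age, 5 fallen in brain and 6 fallen and 1 risen in spinal cord, kept within 1.5 times under every alternative, apart from risen genes without the fold requirement (1 in brain, 2 in spinal cord). For region at E13.5, dropping the fold requirement gave 1 in each direction, and omitting single replicates gave 0 to 1 higher in brain. For region at P7, the members higher in brain numbered 4 with TMM, quantile scaling, protein-coding genes alone or no fold requirement and 1 with a pseudocount of 1 or limma treat, and those higher in spinal cord 0 with quantile scaling or treat. For the interaction, a pseudocount of 1 or treat left 1 of 3 towards brain, and quantile scaling or treat left 0 of 1 towards spinal cord, Elavl3 then being at -0.9967 with quantile scaling. Neurod1 at P7 was called higher in brain by limma-voom (3.17), edgeR (2.82) and DESeq2 (2.90), and its interaction by edgeR (1.90) and DESeq2 (1.97). The cause of these changes was not tested.

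Values near 0 turned sign, none of them called. For brain minus spinal cord at E13.5 these were Map2 with quantile scaling (0.014) and Elavl3 with median-ratio (-0.017) and quantile scaling (-0.00024). At P7 they were Dcx with TMM (0.16), median-ratio (0.20), quantile (0.27) and protein-coding TMM (0.21), Map2 with the same (0.061, 0.10, 0.10 and 0.10), Elavl4 with P7 replicates averaged (-0.018), and Nhlh1 with TMM (0.0047), median-ratio (0.0053), quantile (0.0030), a pseudocount of 0.1 (0.0088), voom (0.29), edgeR (0.0026), DESeq2 (0.0050), averaging (0.015) and protein-coding TMM (0.0070). For the interaction they were Map2 with TMM (0.086), median-ratio (0.21), quantile (0.082) and protein-coding TMM (0.18), and Neurod1 with a pseudocount of 1 (-0.24).

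Omitting single replicates gave ranges across 0 for Elavl3 with age in brain (-0.022 to 0.24), for Map2 (-0.17 to 0.078), Elavl3 (-0.028 to 0.24), Elavl4 (-0.20 to 0.17) and Igfbpl1 (-0.0026 to 0.25) in region at E13.5, for Dcx (-0.088 to 0.038), Elavl4 (-0.0046 to 0.15) and Nhlh1 (-0.031 to 0.053) in region at P7, and for Map2 (-0.21 to 0.035), Elavl4 (-0.11 to 0.25) and Neurod1 (-0.23 to 0.27) in the interaction.

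Same-numbered brain and spinal cord libraries had deviations correlated at r of 0.31, 0.08 and 0.41 at E13.5 and 0.01 to 0.04 at P7. Libraries of other numbers averaged -0.05, 0.008 and -0.35 at E13.5 and -0.03 to 0.003 at P7. Deviations within a group cancel out, so a positive same-number r itself pushes the r of other numbers down. At E13.5 the same-number r was highest for replicates 1 and 3. Replicate 3 includes the spinal cord library with 41.0% of its reads on protein-coding genes. Whether same-numbered libraries share a litter or pool was not tested. The main fit took no pairs because the methods name none. With the replicate block the counts were 5 fallen in brain, 6 fallen and 1 risen in spinal cord, 2 and 1 for region at P7 and 3 and 1 for the interaction, and the block changed no call of a member. Depth limits Nhlh1, Neurod1 and Igfbpl1 at P7, and no regional difference of Nhlh1 was detectable there.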
